A study of Homo sapiens with 29 samples.

Results

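The libraries described here compare WM239A cells that overexpress BRAF-V600E with WM239A cells that carry an empty vector, both without drug. WM239A is an established human metastatic melanoma line. The study sequenced polyadenylated RNA of this line in 29 libraries and followed the response to LGX818, an inhibitor of the BRAF kinase. The 6 libraries without drug, 3 of V600E cells and 3 of Vector cells, were chosen by their labels and not by any measured value. All 20494 genes that passed the count filter, of 60675 listed, were compared between them. The labels do not give the line's own BRAF genotype, the promoter of the vector, whether the V600E cells are 1 clone or a pool, or whether replicate libraries stem from separate cultures. The p-values rest on the spread between replicate libraries, estimated over all 29 libraries in 10 groups and not over these 6 alone. That spread may therefore be technical.

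BRAF is a serine/threonine kinase that phosphorylates MEK, which phosphorylates ERK. The V600E substitution keeps the kinase active without an upstream RAS signal and is the most frequent BRAF mutation in melanoma. Active ERK raises the transcription of early response genes, and among them are phosphatases, Sprouty and Spred proteins that lower the signal again. In melanocytic cells the pathway also acts on MITF and SOX10, the factors that maintain pigment genes, and on the cell cycle through cyclin D1.

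Levels are given as CPM, counts scaled to a common total, after scaling by TMM factors, and changes as log2 of V600E over Vector from edgeR's quasi-likelihood test, with a Benjamini-Hochberg adjusted p under 0.05 as the threshold for a call. Values after ± are standard deviations (SD) of 3 libraries. Totals were 24736045, 30713170 and 26310042 counts in the V600E libraries and 30629762, 27068583 and 23276623 counts in the Vector libraries. Mitochondrially encoded genes took 15.7% ± 0.714 of counts in V600E cells and 12.8% ± 0.353 in Vector cells (SD, n = 3 each; exact two-sided permutation p = 0.1, the smallest that 3 against 3 allows). In a principal component analysis of the 6 libraries the first component held 47.6% of the variance and separated the groups. All 7 markers of melanoma cells were detected in both groups, with summed levels of 2367 to 2482 CPM in V600E libraries and 2827 to 2952 CPM in Vector libraries. All 7 T and NK cell markers and all 4 B cell markers had group means under 1 CPM. The 10 fibroblast markers summed to 104 to 108 CPM in V600E and 126 to 135 CPM in Vector libraries, mostly FAP and POSTN. The 7 endothelial markers, mostly KDR, summed to 9.4 to 11.3 CPM and 9.5 to 10.9 CPM. The 6 epithelial markers, mostly KRT8, summed to 11.2 to 14.0 CPM and 8.75 to 9.73 CPM. Which cells these transcripts come from was not tested.

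The overexpressed gene was checked first. BRAF (chromosome 7, 140719327 to 140924928, minus strand, GRCh38) had 903, 889 and 893 CPM in the V600E libraries, against 37.6, 39.7 and 43.2 CPM in the Vector libraries (log2 change 4.48, SE 0.089, adjusted p = 1.26e-25). All V600E libraries lay more than 20 times above every Vector library. Counts per gene cannot separate transcripts of the introduced copy from those of the cells' own gene. The pseudogene BRAFP1, which shares sequence with BRAF, had 355 counts over the V600E libraries and 0 over the Vector libraries, which is at least 120-fold higher against a floor of 3 counts over the group. It was the 1 gene with no count in a group and at least 1 CPM in the other. NDUFB2, which overlaps BRAF on the opposite strand, had a log2 change of -0.15 (adjusted p = 0.543).

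V600E cells differed from Vector cells in 3476 genes (17% of those tested). Of these, 1442 were higher (7.04%) and 2034 were lower (9.92%). The counts of the gene lists below are to be read against these shares over all tested genes, which are not repeated for each list. Among protein-coding genes the shares were larger, with 8.4% higher and 13.0% lower. Most changes were small. The median absolute log2 change of called genes was 0.52, and 340 genes were at least 2-fold higher (1.66%) and 496 at least 2-fold lower (2.42%). Changes of at least 3 on the log2 scale were found in 56 higher and 86 lower genes. The libraries of the groups did not overlap in 3403 of the 3476 called genes, so a lack of overlap adds little to a call. Over all tested genes 33.9% did not overlap, with V600E libraries all above in 15.7% and all below in 18.2%. The share called rose with the level, from 5.91% of genes under 1 CPM to 22.4% at 10 to 100 CPM and 30.9% over 100 CPM. The lists below were not matched to all genes for level or gene type. A share called near these values is therefore no trait of a list.

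**Figure D1:**
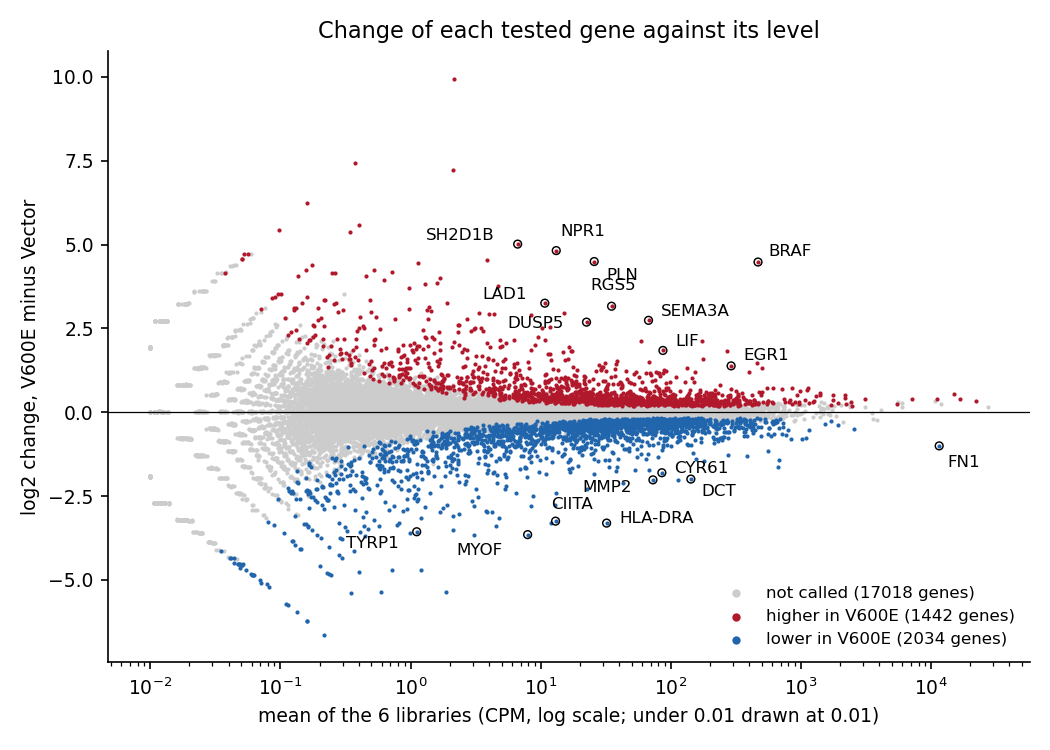
Each point is 1 of 20494 tested genes, with the mean of the 6 libraries in CPM (log scale) on the horizontal axis and the log2 change of V600E against Vector on the vertical axis. Red points are the 1442 genes higher in V600E cells, blue points the 2034 lower ones, and grey points were not called; BRAF stands alone above 100 CPM with a log2 change of 4.48.

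Calls were not even over base composition. Among genes of at least 1 CPM, divided by transcript GC content into 10 groups of equal size, the group of lowest GC content held 148 higher and 64 lower genes. The group of highest GC content held 64 higher and 307 lower genes. The median log2 change was 0.084 at the lowest and -0.16 at the highest GC content. The difference in level between the groups of highest and lowest GC content, measured in each library against the mean of the 6, was -0.25, 0.0044 and -0.10 in the V600E libraries and 0.24, 0.25 and -0.14 in the Vector libraries, on the log2 scale. The third Vector library thus lay among the V600E libraries, and the groups overlapped in this measure. With an offset for GC content, chosen after seeing the data, 1654 genes were higher and 1956 lower. A further offset also took transcript length, and these are called the GC offset and the GC and length offset below. Where an alternative moved the higher or the lower count of a list below by more than 1.5 times, the count under it stands beside the list. The part of base composition in the calls was not tested.

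**Figure D2:**
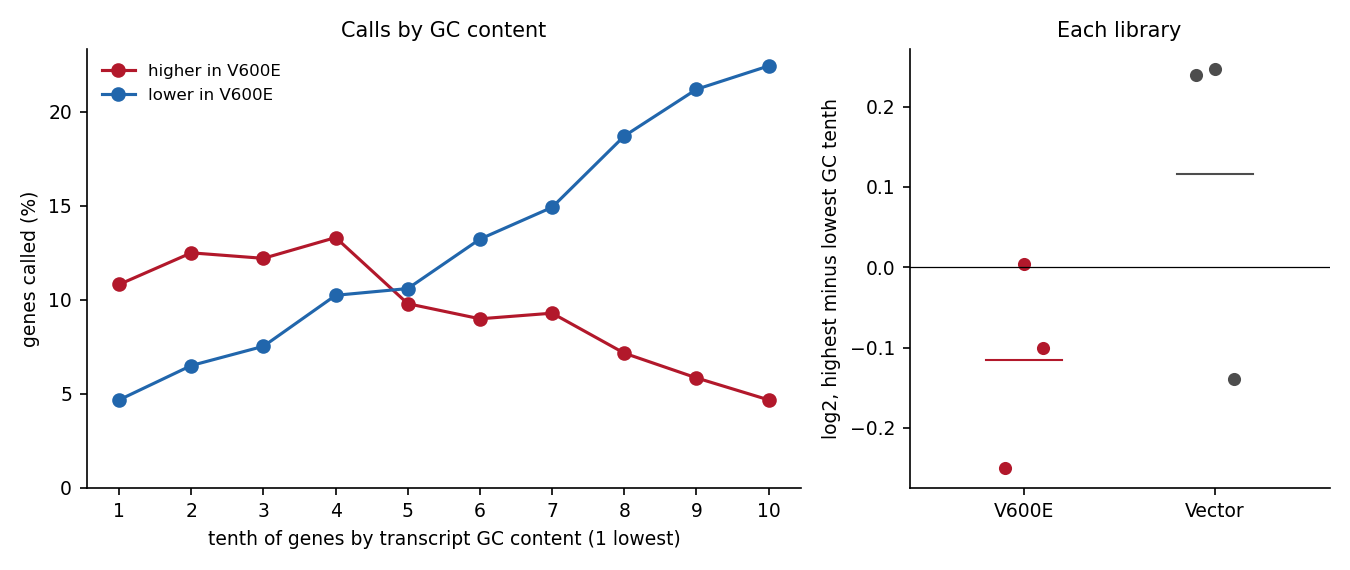
The left panel gives the percentage of genes called higher (red) and lower (blue) in V600E cells for 10 equal groups of genes ordered by the GC content of their longest transcript. The right panel gives, for each V600E and each Vector library, the median log2 level of the group of highest GC content minus that of the lowest, relative to the mean of the 6 libraries; points are libraries, lines are group means, and the third Vector library lies at -0.14.

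The genes of the pathway itself, BRAF aside, changed by less than 2-fold. The share called was 19.0%, against 17.0% of all tested genes. Of 21 tested genes for RAS proteins, RAF kinases, MEK, ERK and their adaptors, none was higher and 4 were lower, with a median log2 change of -0.10. MAPK3, which encodes ERK1, had a log2 change of 0.055 (adjusted p = 0.729, or 0.0276 with an offset for GC content). MAP2K1, which encodes MEK1, had a log2 change of -0.027 (adjusted p = 0.857). The small GTPase MRAS, part of a complex that removes an inhibitory phosphate from RAF, had 12.8, 14.8 and 13.1 CPM in the V600E libraries, against 23.5, 23.2 and 25.9 CPM in the Vector libraries (log2 change -0.83, SE 0.082, adjusted p = 4.37e-09). The list held 1 higher and 7 lower genes with the GC and length offset and 1 and 6 with the GC offset. Among 11 RAS GTPase-activating proteins, which switch RAS off, 3 were higher (RASA1, RASA2 and RASAL1) and 1 was lower (RASAL2). RASA2 averaged 20.7 ± 1.84 CPM in V600E cells and 14.1 ± 1.9 CPM in Vector cells (log2 change 0.55). RASAL1 and RASAL2 lost their calls whichever library was left out, with adjusted p between 0.0635 and 0.133 for RASAL1 and between 0.0502 and 0.137 for RASAL2. The list then held 2 higher and no lower genes, and with the GC and length offset it held 6 higher and 1 lower.

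Genes for MAP kinase phosphatases and Sprouty proteins, some of which act against the pathway and are induced by it, rose in part. The phosphatases listed do not all act mainly on ERK. DUSP5, which encodes a nuclear phosphatase that acts on ERK (chromosome 10, 110497838 to 110511544, plus strand), had 37.6, 40.5 and 38.8 CPM in the V600E libraries, against 6.69, 5.51 and 5.9 CPM in the Vector libraries (log2 change 2.69, SE 0.11, adjusted p = 5.69e-18). The lowest V600E library was over 5 times the highest Vector library. DUSP10, a phosphatase that acts mainly on JNK and p38, had 51, 56.8 and 52.6 CPM in the V600E libraries, against 28.8, 29.4 and 29.8 CPM in the Vector libraries (log2 change 0.87, SE 0.069, adjusted p = 5.21e-11). DUSP6, the cytoplasmic ERK phosphatase, was raised less, with a log2 change of 0.57. DUSP4, another nuclear ERK phosphatase, had 1448, 1549 and 1502 CPM in the V600E libraries, against 1421, 1353 and 1361 CPM in the Vector libraries. It did not pass the threshold (log2 change 0.12, adjusted p = 0.275), but did with an offset for GC content and transcript length (adjusted p = 0.0141). DUSP8, at 0.303 ± 0.109 CPM in V600E cells and 0.833 ± 0.121 CPM in Vector cells, was lower (log2 change -1.45). Over the 10 phosphatases the count was 3 higher and 1 lower. SPRY1, an inhibitor of receptor tyrosine kinase signalling, had 76.5, 77.5 and 77.6 CPM in the V600E libraries, against 51.4, 47.9 and 48.3 CPM in the Vector libraries (log2 change 0.65, SE 0.10, adjusted p = 1.27e-05). SPRY4 had a log2 change of 0.65, while SPRY2 did not pass the threshold (log2 change 0.051). SPRED1 and SPRED2, which bring neurofibromin to RAS, had log2 changes of 0.17 and 0.052 and did not pass it either, although SPRED1 did with that offset (adjusted p = 0.0392).

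**Figure D3:**
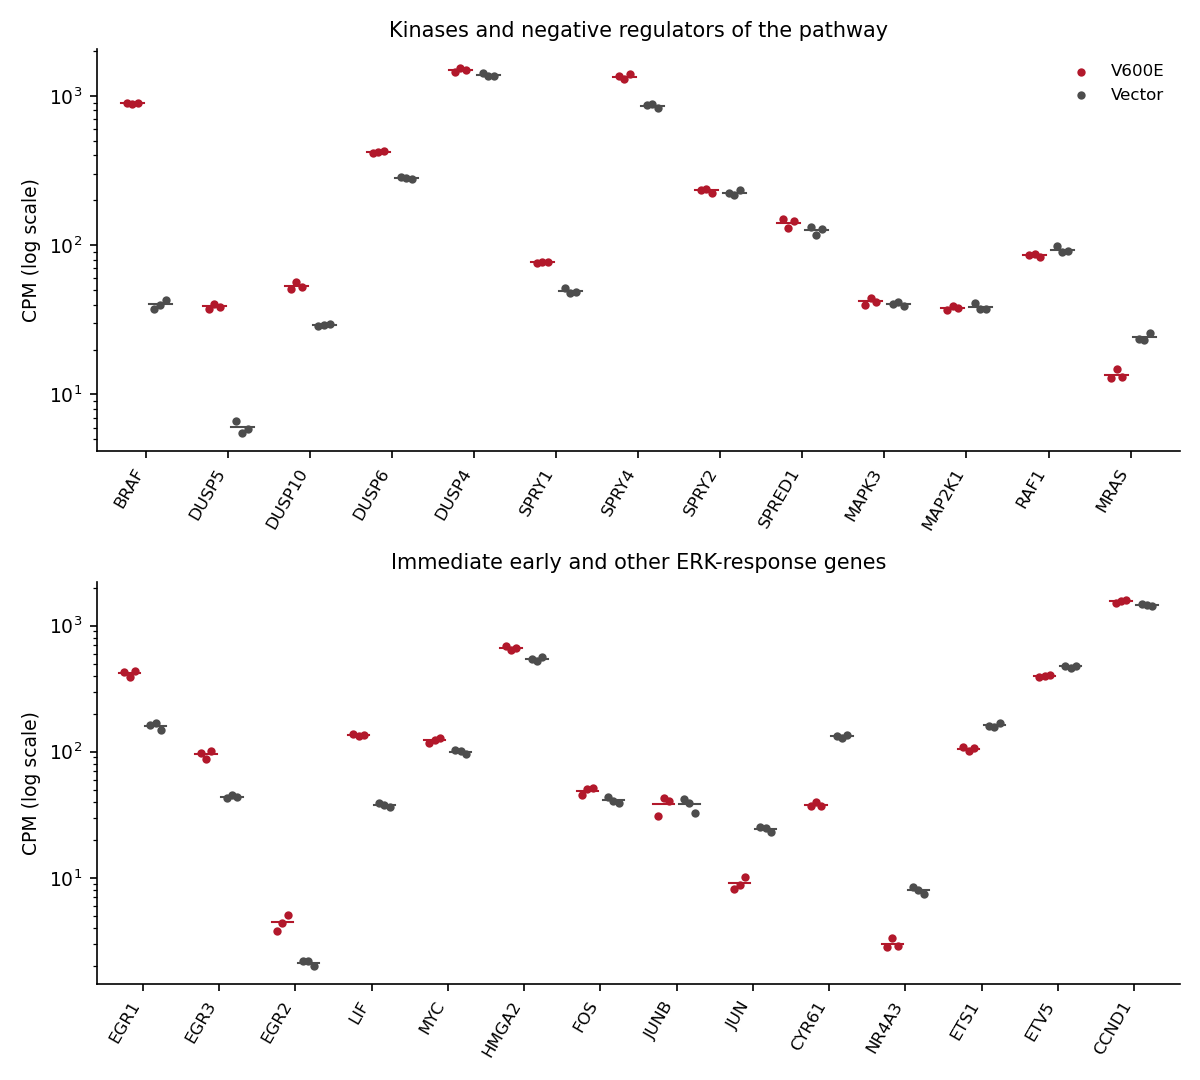
CPM (log scale) of pathway genes and negative regulators (top) and of early and other ERK-response genes (bottom) in each V600E library (red, left) and each Vector library (grey, right); points are libraries and lines are group means. DUSP5 shows the widest gap after BRAF, the 3 EGR genes and LIF lie higher in V600E cells, and JUN, CYR61 and NR4A3 lie lower.

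The immediate early genes, which are transcribed within minutes of a growth signal without new protein synthesis, split. Of 20 tested, 6 were higher and 6 lower. All 3 tested members of the EGR zinc finger family rose. EGR1 (chromosome 5, 138465490 to 138469315, plus strand) had 429, 391 and 438 CPM in the V600E libraries, against 164, 169.7 and 149 CPM in the Vector libraries (log2 change 1.38, SE 0.11, adjusted p = 5.73e-11). EGR3 had 97.3, 88.3 and 101 CPM in the V600E libraries, against 43, 45.3 and 43.8 CPM in the Vector libraries (log2 change 1.12, SE 0.11, adjusted p = 6.89e-09). EGR2 had 3.8, 4.41 and 5.07 CPM in the V600E libraries, against 2.18, 2.19 and 2.01 CPM in the Vector libraries (log2 change 1.05, SE 0.14, adjusted p = 7.35e-07). In each of the 3 genes every V600E library lay above every Vector library. FOS, the classical early response gene, had 45.2, 50.3 and 52 CPM in the V600E libraries, against 43.9, 40.7 and 39.3 CPM in the Vector libraries. Its groups did not overlap, yet it did not pass the threshold (log2 change 0.25, adjusted p = 0.16). It passed it in the 6 libraries alone (adjusted p = 0.0156) and with an offset for GC content (adjusted p = 0.0394). CYR61, a secreted matricellular protein that responds to serum and to YAP, had 36.8, 40.1 and 36.9 CPM in the V600E libraries, against 133, 129 and 136 CPM in the Vector libraries (log2 change -1.81, SE 0.074, adjusted p = 1.15e-17). The orphan nuclear receptors of the NR4A family went different ways, with log2 changes of 0.38 for NR4A1, -0.47 for NR4A2 and -1.4 for NR4A3.

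The EGR1 promoter is shown because ERK reaches this gene through ternary complex factors bound beside serum response factor, whose sites are known as CArG boxes. Capitals mark the 2 CArG boxes found in the window of 250 bases before and 50 after the RefSeq start (either strand). They begin 105 and 83 bases before the start. Such a box was found in 1.29% of 35116 promoters of the same length, and among the immediate early genes with a promoter in the table in 1 of 4 higher, none of 4 lower and 1 of 6 uncalled genes.
EGR1 promoter, GRCh38.p14, chr5:138465229-138465528, plus strand: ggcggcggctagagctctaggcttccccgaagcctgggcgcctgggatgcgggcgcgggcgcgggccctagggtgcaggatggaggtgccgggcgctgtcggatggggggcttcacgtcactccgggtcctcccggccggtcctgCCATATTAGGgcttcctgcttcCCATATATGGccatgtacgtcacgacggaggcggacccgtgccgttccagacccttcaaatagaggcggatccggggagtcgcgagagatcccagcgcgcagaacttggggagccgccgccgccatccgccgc

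AP-1 and ETS factors, the other transcription factors at the end of the pathway, held called genes in both directions. The share called was 17.6% of AP-1 genes, near the 17.0% of all tested genes, and 36.8% of ETS genes. JUN, the partner of FOS in AP-1, had 8.16, 8.75 and 10.1 CPM in the V600E libraries, against 25.3, 24.6 and 23 CPM in the Vector libraries (log2 change -1.43, SE 0.11, adjusted p = 2.01e-11). FOSL1, which encodes FRA-1, was lower too (log2 change -0.97), while FOSL2, which encodes FRA-2, was higher (log2 change 0.48). Of 17 AP-1 genes, 1 was higher and 2 were lower, with 2 and 2 under either offset and 2 and 3 in the 6 libraries alone. Of 19 ETS genes, 2 were higher and 5 lower (2 and 3 without the second V600E library). FLI1 had 26.6, 23.6 and 25.3 CPM in the V600E libraries, against 16, 16.2 and 14.4 CPM in the Vector libraries (log2 change 0.69, SE 0.097, adjusted p = 2.70e-06). ETS1 had 109, 101 and 107 CPM in the V600E libraries, against 159, 156 and 169 CPM in the Vector libraries (log2 change -0.61, SE 0.082, adjusted p = 1.37e-06). The PEA3 factors ETV4 and ETV5, both used as readouts of ERK, differed in direction, with log2 changes of 0.40 and -0.24. ETV5 had 394, 399.6 and 407 CPM in the V600E libraries, against 476, 465 and 480.4 CPM in the Vector libraries, so its groups did not overlap although the change was small. Its call was lost without the first or second V600E library or the first Vector library (adjusted p = 0.0598, 0.0529 and 0.0572).

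Other genes known to respond to ERK included 10 higher and 6 lower genes of 26. LIF, a cytokine of the interleukin 6 family, had 138, 133 and 136 CPM in the V600E libraries, against 39, 38 and 36.7 CPM in the Vector libraries (log2 change 1.84, SE 0.072, adjusted p = 5.28e-18). The groups lay far apart and their libraries close together. HMGA2, an architectural chromatin protein, had 663 ± 21.1 CPM in V600E cells and 542 ± 18.9 CPM in Vector cells (log2 change 0.29). MYC had 117, 124 and 129 CPM in the V600E libraries, against 103, 101 and 95.1 CPM in the Vector libraries (log2 change 0.31, SE 0.065, adjusted p = 8.26e-04), while MXD4 and MXI1, which compete with MYC for its partner, had log2 changes of -0.66 and -0.30. Of 13 genes of the MYC network 1 was higher and 4 were lower. PLAT and PLAUR, of the plasminogen activator system, were lower (log2 changes -0.82 and -0.48). CCND1, which encodes cyclin D1, had 1504, 1562 and 1594 CPM in the V600E libraries, against 1488, 1454 and 1442 CPM in the Vector libraries. It did not pass the threshold (log2 change 0.088, adjusted p = 0.375), but did with an offset for GC content and transcript length (adjusted p = 0.0316).

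Few cell cycle genes were called. Of 33 replication genes 3 were higher and none lower, of 35 mitosis genes 2 were higher and none lower, and of 6 tested CDK inhibitors none passed the threshold (1 was higher with either offset). Their median log2 changes were 0.079, 0.034 and -0.12. The number of higher replication genes was 1 without the second V600E or the second Vector library, and 5 with DESeq2 or the GC and length offset. That of higher mitosis genes was 4 with DESeq2 or without the third Vector library, and with either offset 1 mitosis gene was lower. In the 6 libraries alone 8 replication genes were higher and 1 lower, and 5 mitosis genes were higher. CDKN1A, which encodes p21, had 296, 322 and 329 CPM in the V600E libraries, against 359, 349 and 332 CPM in the Vector libraries (log2 change -0.14, adjusted p = 0.218). CDK2, which drives entry into S phase and is also a MITF target in melanocytes, had 259.6, 270.3 and 265 CPM in the V600E libraries, against 173, 159 and 173 CPM in the Vector libraries (log2 change 0.65, SE 0.064, adjusted p = 3.38e-09). CDK2 overlaps PMEL on the opposite strand, and PMEL had 619, 683 and 638 CPM in the V600E libraries, against 599, 555 and 548 CPM in the Vector libraries (adjusted p = 0.355, or 0.0196 in the 6 libraries alone). Among 15 BCL2 family genes, 4 were higher and 3 lower. BMF, a BH3-only protein that promotes apoptosis, had 14.9, 13.6 and 14.2 CPM in the V600E libraries, against 37.6, 37.6 and 37.3 CPM in the Vector libraries (log2 change -1.4, SE 0.086, adjusted p = 1.51e-13). BCL2L11, which encodes BIM, was lower as well (log2 change -0.33), a call that was lost in 4 of the 6 fits that leave out a library (adjusted p up to 0.108). By contrast, the BH3-only genes HRK and PMAIP1 were higher (log2 changes 1.94 and 0.84). The survival genes BCL2A1 and MCL1 were higher (log2 changes 0.64 and 0.29), and BCL2 was lower (-0.60). Of 28 genes of the p53 list 1 was higher and 4 were lower (17.9% called, against 17.0% of all tested genes). Its higher count was 0 without the second Vector library or a count filter, and 2 with DESeq2, RLE size factors or the GC offset, or without BRAF and the mitochondrial genes.

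Among receptors more genes were lower than higher, and among growth factors more were higher than lower. Of 35 receptor tyrosine kinases, 2 were higher and 9 lower, with a median log2 change of -0.34 (5 higher and 7 lower with the GC and length offset, 4 and 9 in the 6 libraries alone). FLT1, which encodes the VEGF receptor 1, had 9.08, 8.27 and 8.37 CPM in the V600E libraries, against 23, 23.1 and 25.9 CPM in the Vector libraries (log2 change -1.49, SE 0.16, adjusted p = 2.33e-08). ERBB2 had 23.7 ± 0.346 CPM in V600E cells and 40.6 ± 1.97 CPM in Vector cells (log2 change -0.78). NTRK2, a neurotrophin receptor, was low in both groups, with 0.04, 0.0648 and 0.303 CPM in the V600E libraries, against 1.63, 1.31 and 1.34 CPM in the Vector libraries (log2 change -3.38, SE 0.40, adjusted p = 1.74e-07). Of 39 growth factor genes, 10 were higher and 7 lower. The lower count was 4 without the first V600E, the second V600E or the first Vector library, and in the 6 libraries alone. NRG3, a neuregulin, had 9.6, 8.01 and 8.63 CPM in the V600E libraries, against 2.46, 1.91 and 1.84 CPM in the Vector libraries (log2 change 2.07, SE 0.24, adjusted p = 1.71e-07). NRG1, another neuregulin, moved the other way, with 0.40, 0.454 and 0.454 CPM in the V600E libraries, against 1.95, 2.79 and 2.34 CPM in the Vector libraries (log2 change -2.42, SE 0.24, adjusted p = 3.67e-09). TGFA and HBEGF, which bind the EGF receptor, were higher (log2 changes 0.33 and 0.55). VEGFA, FGF1 and PDGFD were higher as well (log2 changes 0.35, 0.75 and 0.54). IGFBP7, a secreted protein that binds insulin-like growth factors, had 15.1, 23.7 and 17.9 CPM in the V600E libraries, against 66, 60.1 and 50.1 CPM in the Vector libraries (log2 change -1.63, SE 0.15, adjusted p = 7.90e-10).

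Guidance genes changed in both directions. SEMA3A, a secreted semaphorin that repels axons and endothelial cells, had 122, 109.7 and 119 CPM in the V600E libraries, against 18.2, 16.3 and 18.1 CPM in the Vector libraries (log2 change 2.74, SE 0.10, adjusted p = 1.86e-18). NRP1, its co-receptor, had 15.6, 14.2 and 15.4 CPM in the V600E libraries, against 35.5, 33.2 and 36.2 CPM in the Vector libraries (log2 change -1.22, SE 0.088, adjusted p = 6.04e-12), and SEMA3C was lower (log2 change -1.49). Among plexins, the signalling receptors of semaphorins, PLXNB1 and PLXNC1 were lower (log2 changes -1.16 and -0.96) and PLXNA2 was higher (0.94). Over the 30 genes the count was 5 higher and 12 lower, and 8 higher and 11 lower with the GC and length offset. The higher count was 3 without the first or second V600E library or the second or the third Vector library. Of 19 ephrins and their receptors 6 were higher and 6 lower, with EPHB1 at 45, 47.9 and 45 CPM in the V600E libraries, against 17.8, 16.2 and 16.3 CPM in the Vector libraries (log2 change 1.46, SE 0.10, adjusted p = 2.29e-12). EPHB2 was higher too (log2 change 2.21), and EPHA5 and EPHA2 were lower (log2 changes -1.14 and -1.0). EPHA1 was higher (1.7) and is treated with its neighbours below.

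Many pigment genes were lower, while MITF did not pass the threshold. Of 33 pigment and melanosome genes 16 were lower and 6 higher, against 9.92% lower and 7.04% higher over all genes. TYR, which encodes tyrosinase, the first enzyme of melanin synthesis, had 336, 353 and 342 CPM in the V600E libraries, against 506, 476 and 507 CPM in the Vector libraries (log2 change -0.53, SE 0.10, adjusted p = 2.10e-04). DCT, the dopachrome tautomerase, had 59.97, 55 and 56.4 CPM in the V600E libraries, against 222, 216 and 245 CPM in the Vector libraries (log2 change -1.99, SE 0.14, adjusted p = 4.63e-12). TYRP1, a tyrosinase-related protein that acts later in the synthesis, was low in both groups, with 0.16, 0.195 and 0.151 CPM in the V600E libraries, against 2.27, 1.73 and 2.18 CPM in the Vector libraries (log2 change -3.57, SE 0.39, adjusted p = 3.48e-08). SLC45A2, a melanosomal transporter, had 94.2, 99.3 and 96.4 CPM in the V600E libraries, against 198, 189.8 and 184 CPM in the Vector libraries (log2 change -0.98, SE 0.081, adjusted p = 1.05e-10). In these 4 genes every V600E library lay below every Vector library. TRPM1, a channel regulated by MITF, and BCAN, a proteoglycan, were lower as well (log2 changes -2.3 and -2.5). PMEL and MLANA, the melanosome matrix protein and its partner, did not pass the threshold, and MLANA had 367, 404 and 369.5 CPM in the V600E libraries, against 372, 356 and 383 CPM in the Vector libraries. Higher genes of the list were ST3GAL6, CAPN3, CDK2, BLOC1S5, RAB27A and SLC7A5, of which only ST3GAL6 reached 2-fold (log2 change 1.05). The call of SLC7A5 was lost without the third Vector library (adjusted p = 0.0542).

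The promoters of TYR, TYRP1 and DCT are shown because MITF is known to bind the M-box, whose core reads CATGTG, at pigment genes. Capitals mark each copy, on either strand. The motif was found in 11.1% of 35116 promoters of this length. Among pigment genes with a promoter in the table it was found in 8 of 13 lower, 0 of 5 higher and 3 of 9 uncalled genes.
TYR promoter, GRCh38.p14, chr11:89177625-89177924, plus strand: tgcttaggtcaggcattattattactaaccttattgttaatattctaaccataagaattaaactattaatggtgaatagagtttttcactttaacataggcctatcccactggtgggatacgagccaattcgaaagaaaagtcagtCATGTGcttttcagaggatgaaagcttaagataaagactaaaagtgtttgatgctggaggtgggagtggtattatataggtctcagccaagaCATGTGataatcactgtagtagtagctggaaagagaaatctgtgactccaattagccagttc
TYRP1 promoter, GRCh38.p14, chr9:12693135-12693434, plus strand: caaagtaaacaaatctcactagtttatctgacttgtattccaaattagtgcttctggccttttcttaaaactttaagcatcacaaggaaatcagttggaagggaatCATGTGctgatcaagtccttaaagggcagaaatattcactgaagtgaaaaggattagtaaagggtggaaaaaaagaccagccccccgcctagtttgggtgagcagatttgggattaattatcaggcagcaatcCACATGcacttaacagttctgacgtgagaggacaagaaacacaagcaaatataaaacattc
DCT promoter, GRCh38.p14, chr13:94479633-94479932, minus strand: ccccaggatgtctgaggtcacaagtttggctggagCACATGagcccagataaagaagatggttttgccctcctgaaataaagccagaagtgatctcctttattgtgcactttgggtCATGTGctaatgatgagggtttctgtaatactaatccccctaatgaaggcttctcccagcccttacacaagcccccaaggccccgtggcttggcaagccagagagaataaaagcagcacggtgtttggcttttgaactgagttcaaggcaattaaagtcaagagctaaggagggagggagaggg

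Of 21 lineage factors, which act upstream of pigment genes, 4 were higher and 8 lower. MITF had 361, 342 and 344 CPM in the V600E libraries, against 339.6, 329.9 and 369.8 CPM in the Vector libraries (log2 change 0.011, adjusted p = 0.987). SOX10 was slightly lower (log2 change -0.29, adjusted p = 0.0289), and this call was lost with the GC offset (adjusted p = 0.478) and in 5 of the 6 fits that leave out a library, where adjusted p was 0.0575 to 0.14. SOX10 overlaps POLR2F on the opposite strand (log2 change 0.37). PAX3, which acts upstream of MITF, had 40.1, 37.6 and 39.1 CPM in the V600E libraries, against 60.5, 60.7 and 61.7 CPM in the Vector libraries (log2 change -0.65, SE 0.066, adjusted p = 9.61e-09). TFAP2A, which shares targets with MITF, had 79.7, 78.6 and 84.5 CPM in the V600E libraries, against 146, 151 and 146 CPM in the Vector libraries (log2 change -0.87, SE 0.087, adjusted p = 6.92e-09). SOX8 had 177, 209 and 207 CPM in the V600E libraries, against 114, 110.4 and 92.6 CPM in the Vector libraries (log2 change 0.90, SE 0.12, adjusted p = 1.35e-06), and SOX5 was higher too (log2 change 0.60). FOXD3, a neural crest factor, had 5.08, 5.61 and 5.41 CPM in the V600E libraries, against 11, 10.5 and 9.34 CPM in the Vector libraries (log2 change -0.94, SE 0.14, adjusted p = 9.08e-06). Markers of a neural crest or undifferentiated state were lower in 10 and higher in 1 of 18 genes, with a median log2 change of -0.87. S100B, a calcium-binding protein of glial and melanocytic cells, had 157, 176 and 163 CPM in the V600E libraries, against 306, 281 and 274 CPM in the Vector libraries (log2 change -0.79, SE 0.098, adjusted p = 3.37e-07). A2M, a protease inhibitor, was lower too (log2 change -0.65). RXRG, the retinoid receptor named as a marker of neural crest stem cell-like melanoma cells, was the exception, with 52.2, 52.8 and 47.3 CPM in the V600E libraries, against 25.4, 22.7 and 23.9 CPM in the Vector libraries (log2 change 1.08, SE 0.11, adjusted p = 9.11e-09).

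**Figure D4:**
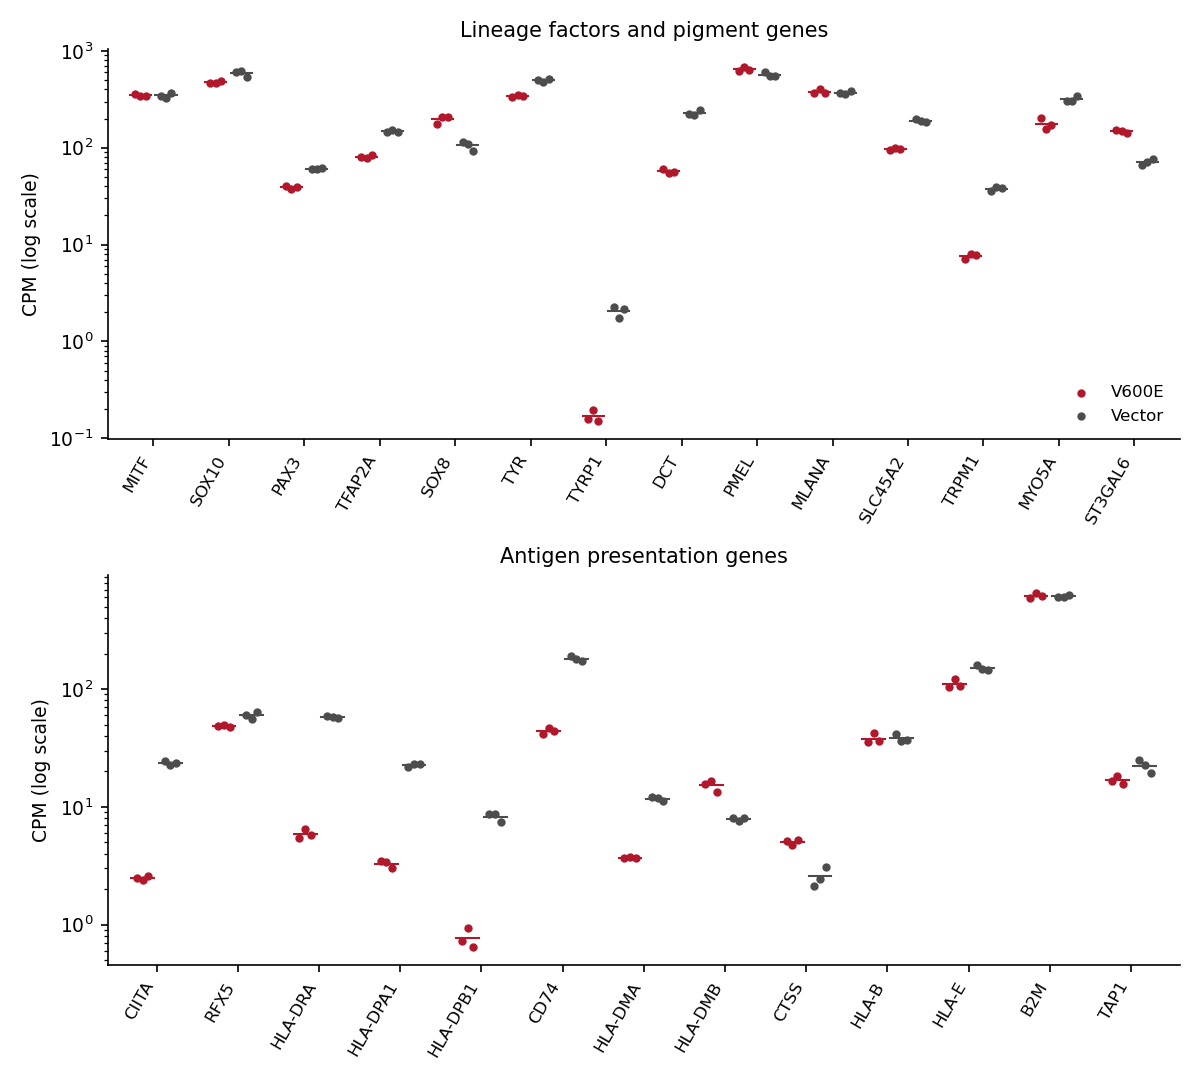
CPM (log scale) of lineage factors and pigment genes (top) and of antigen presentation genes (bottom) in each V600E library (red, left) and each Vector library (grey, right); points are libraries and lines are group means. MITF, MLANA, HLA-B and B2M overlap between the groups, while DCT, TRPM1, TYRP1, CIITA and the class II genes other than HLA-DMB and CTSS lie lower in V600E cells.

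Genes of the MHC class II pathway, which presents peptides to CD4 T cells and is switched on by the coactivator CIITA, included some of the largest falls. Of 16 tested, 7 were lower, 6 of them at least 2-fold, and 2 were higher. HLA-DPB1, a class II beta chain, had 0.72, 0.94 and 0.644 CPM in the V600E libraries, against 8.61, 8.7 and 7.37 CPM in the Vector libraries (log2 change -3.4, SE 0.23, adjusted p = 1.87e-12). CD74, the invariant chain that guides class II molecules, had 41.5, 47.1 and 44.1 CPM in the V600E libraries, against 190.3, 179.5 and 173 CPM in the Vector libraries (log2 change -2.03, SE 0.13, adjusted p = 1.78e-13). In both genes every V600E library lay far below every Vector library, and CIITA, HLA-DRA and HLA-DPA1 fell alike (log2 changes -3.25, -3.31 and -2.78). HLA-DPA1 and HLA-DPB1 overlap on opposite strands, and so do CIITA and DEXI, and HLA-DMA and BRD2. Class II genes also resemble each other, so single values are uncertain. RFX5, which binds class II promoters together with CIITA, was lower by less than 2-fold (log2 change -0.30). The pair HLA-DMA and HLA-DMB, the chains of the heterodimer that loads peptides, did not move together. HLA-DMA had 3.64, 3.76 and 3.67 CPM in the V600E libraries, against 12.1, 11.8 and 11.3 CPM in the Vector libraries (log2 change -1.66, SE 0.15, adjusted p = 1.01e-09). HLA-DMB had 15.5, 16.6 and 13.5 CPM in the V600E libraries, against 8.07, 7.53 and 8.0 CPM in the Vector libraries (log2 change 0.95, SE 0.16, adjusted p = 5.44e-05). CTSS, the protease that trims the invariant chain, was higher with HLA-DMB (log2 change 0.98). Of the 7 myeloid markers fixed for the check of cell types, 5 had means under 1 CPM in both groups. Of these, 1 was at 0 in all 6 libraries. The summed level of the markers was 5.64 to 6.87 CPM in V600E libraries and 2.08 to 3.04 CPM in Vector libraries. FCER1G had 3.98 CPM in V600E cells and 0.647 CPM in Vector cells, while LYZ had 1.92 and 1.82 CPM. The difference in the sum thus lay mostly in FCER1G. The part of these markers in HLA-DMB and CTSS was not tested.

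The promoters of HLA-DMA and HLA-DMB are shown because their genes lie near each other and changed in opposite directions. Capitals mark GATTGG on either strand, the core of the Y box that class II promoters share and that the factor NF-Y binds. The marked copy begins 80 bases before the start in HLA-DMA. In HLA-DMB it begins 22 bases before the start and lies on the opposite strand, reading CCAATC. Whether a marked copy serves as a Y box was not tested. It was found in 15.1% of 35116 promoters, and in 1 of 1 higher, 3 of 5 lower and 2 of 6 uncalled genes of the class II list that have a promoter in the table.
HLA-DMA promoter, GRCh38.p14, chr6:32953048-32953347, minus strand: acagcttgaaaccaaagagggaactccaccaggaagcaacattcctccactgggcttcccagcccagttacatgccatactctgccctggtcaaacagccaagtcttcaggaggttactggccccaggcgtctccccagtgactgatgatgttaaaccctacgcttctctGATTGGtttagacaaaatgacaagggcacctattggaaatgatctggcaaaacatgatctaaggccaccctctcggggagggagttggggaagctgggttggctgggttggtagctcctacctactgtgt
HLA-DMB promoter, GRCh38.p14, chr6:32940979-32941278, minus strand: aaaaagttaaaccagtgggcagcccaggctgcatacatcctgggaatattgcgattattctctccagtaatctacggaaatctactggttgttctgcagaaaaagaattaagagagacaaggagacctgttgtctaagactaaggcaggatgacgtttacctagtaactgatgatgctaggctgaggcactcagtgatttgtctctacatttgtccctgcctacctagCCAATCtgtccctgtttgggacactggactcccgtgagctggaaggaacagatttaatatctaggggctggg

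Class I and interferon genes held smaller changes. Of 21 class I genes, 1 was higher and 5 were lower, but 2 were lower without the first or the third V600E library or the first or second Vector library. None was higher without the second V600E library or the first or second Vector library, and 2 were higher without the third Vector library or in the 6 libraries alone. The count was 4 higher and 4 lower with the GC and length offset and 3 and 3 with the GC offset. HLA-B and B2M, the class I light chain, had log2 changes of -0.017 and 0.0089 and did not pass the threshold. Of 56 interferon response genes, 4 were higher and 12 lower (3 and 7 without the second V600E library, 2 and 12 without the third Vector library). SOCS3, an inhibitor of JAK signalling, had 4.04, 5.06 and 4.09 CPM in the V600E libraries, against 15.3, 15.3 and 14.7 CPM in the Vector libraries (log2 change -1.78, SE 0.13, adjusted p = 4.96e-12). STAT3, which mediates the response to LIF and interleukin 6, had 156, 159 and 159 CPM in the V600E libraries, against 233, 227 and 235 CPM in the Vector libraries (log2 change -0.55, SE 0.069, adjusted p = 3.26e-07). MX2, an antiviral GTPase, was lower (log2 change -1.24), and IFIT3, which binds viral RNA, was higher (0.87). Of 26 checkpoint and NK ligand genes, 5 were higher and 6 lower, and 3 were higher without the second V600E or the second Vector library. Lower members included TNFRSF14, a receptor of the TNF family (log2 change -0.67). CD274, which encodes PD-L1, was higher from a low level, with 1.32, 1.17 and 1.1 CPM in the V600E libraries, against 0.672, 0.566 and 0.335 CPM in the Vector libraries (log2 change 1.15, SE 0.30, adjusted p = 0.00564). SH2D1B, an adaptor of NK cells, had 12.6, 12.9 and 13.2 CPM in the V600E libraries, against 0.416, 0.389 and 0.377 CPM in the Vector libraries (log2 change 5.01, SE 0.22, adjusted p = 1.22e-16). This was the largest rise under the rule for named genes. The 7 T and NK cell markers summed to 0.2 to 0.421 CPM in V600E libraries and 0.126 to 0.32 CPM in Vector libraries, and 3 of them were at 0 in all 6 libraries.

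Genes of YAP and TEAD, the effectors of the Hippo pathway, and their targets were lower in 14 and higher in 1 of 28 genes, with a median log2 change of -0.30. AMOTL2, a scaffold that holds YAP at junctions, had 11.6, 10.9 and 11.4 CPM in the V600E libraries, against 41.5, 42 and 37.8 CPM in the Vector libraries (log2 change -1.84, SE 0.091, adjusted p = 1.21e-15). CTGF, a matricellular protein like CYR61, had 52.8, 55.1 and 55.3 CPM in the V600E libraries, against 121, 117 and 116 CPM in the Vector libraries (log2 change -1.11, SE 0.077, adjusted p = 2.06e-12). LATS2 and TEAD3 were lower as well (log2 changes -0.81 and -0.73). F3, which encodes tissue factor, was the higher member (log2 change 0.91). Without a count filter or with the GC and length offset 2 members were higher, and 3 in the 6 libraries alone.

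The CTGF promoter is shown because TEAD factors are known to act on it through repeated sites. Capitals mark the 3 copies of GGAATG (both strands searched), which begin 169, 104 and 95 bases before the start. At least 1 copy was found in 14.0% of 35116 promoters, and in 3 of 10 lower, 0 of 1 higher and 4 of 10 uncalled genes of the list that have a promoter in the table.
CTGF promoter, GRCh38.p14, chr6:131951323-131951622, minus strand: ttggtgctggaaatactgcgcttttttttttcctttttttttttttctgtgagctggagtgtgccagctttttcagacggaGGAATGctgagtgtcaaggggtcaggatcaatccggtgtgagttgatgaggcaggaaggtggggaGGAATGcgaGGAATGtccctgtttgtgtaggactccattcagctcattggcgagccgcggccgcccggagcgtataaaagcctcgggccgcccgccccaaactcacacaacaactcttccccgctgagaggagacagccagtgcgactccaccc

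Matrix genes fell more often than they rose. FN1, which encodes fibronectin, had 8184, 7191 and 7638 CPM in the V600E libraries, against 15563, 14657 and 15952 CPM in the Vector libraries (log2 change -1.0, SE 0.13, adjusted p = 4.35e-07). Of 52 collagen and collagen-modifying genes, 17 were lower and 8 higher. The fibrillar collagen gene COL5A1 had 1.04, 0.843 and 1.02 CPM in the V600E libraries, against 8.64, 9.05 and 7.95 CPM in the Vector libraries (log2 change -3.15, SE 0.17, adjusted p = 8.18e-15), while COL4A1 and COL4A2, the main chains of basement membrane collagen, were higher (log2 changes 0.59 and 0.36). COL4A1 had 581, 566 and 566 CPM in the V600E libraries, against 399, 359.9 and 380.3 CPM in the Vector libraries. No laminin was higher, and 6 of 12 were lower (3 without the third V600E library), while 1 was higher without a count filter, with the GC and length offset or in the 6 libraries alone. Of 48 matrix proteases and inhibitors, 3 were higher and 17 lower. The higher count was 5 with DESeq2, 6 with the GC offset or in the 6 libraries alone, and 7 without a count filter or with the GC and length offset. MMP2, a gelatinase, had 29, 29.3 and 28.2 CPM in the V600E libraries, against 125, 109 and 116 CPM in the Vector libraries (log2 change -2.02, SE 0.074, adjusted p = 1.81e-18). TIMP3, an inhibitor of such proteases that stays bound to the matrix, had 367, 369.6 and 379.6 CPM in the V600E libraries, against 1034, 941 and 1001 CPM in the Vector libraries (log2 change -1.42, SE 0.076, adjusted p = 7.68e-15), and it overlaps SYN3 on the opposite strand (log2 change -0.16). TIMP2 and MMP14 were lower with them (log2 changes -0.70 and -0.64). HAPLN1, a link protein of the cartilage matrix, went the other way, with 3.4, 2.56 and 3.52 CPM in the V600E libraries, against 0.096, 0.353 and 0.126 CPM in the Vector libraries (log2 change 4.01, SE 0.37, adjusted p = 9.06e-10).

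Of 34 contractile and cytoskeletal genes, 13 were lower and 3 higher. MYOF, a ferlin that acts in membrane repair, had the largest fall under the rule for named genes, with 1.24, 1.39 and 0.833 CPM in the V600E libraries, against 13.8, 14.5 and 15.8 CPM in the Vector libraries (log2 change -3.65, SE 0.18, adjusted p = 1.41e-15). FLNA and TLN1, which link actin to adhesions, had log2 changes of -0.78 and -0.45. Integrins split into 5 higher and 7 lower of 23. ITGA10, a collagen-binding alpha chain, had 8.76, 7.42 and 7.91 CPM in the V600E libraries, against 2.43, 1.56 and 2.18 CPM in the Vector libraries (log2 change 1.96, SE 0.18, adjusted p = 1.81e-09), while ITGA3 and ITGA4 were lower (log2 changes -0.76 and -0.63). Of 11 transcription factors of epithelial-mesenchymal transition 5 were higher and 3 lower. ZEB1 had 25.8, 20.9 and 22.4 CPM in the V600E libraries, against 6.98, 7.71 and 9.0 CPM in the Vector libraries (log2 change 1.55, SE 0.14, adjusted p = 1.09e-09). ZEB2 had 133, 113 and 127 CPM in the V600E libraries, against 211, 197 and 234 CPM in the Vector libraries (log2 change -0.78, SE 0.12, adjusted p = 9.27e-06). SNAI2 had 31.6, 30.2 and 31.9 CPM in the V600E libraries, against 78.6, 73 and 85 CPM in the Vector libraries (log2 change -1.34, SE 0.084, adjusted p = 2.84e-13), and TWIST1 was higher (log2 change 0.92). ZEB2 and SNAI2 are known from melanocytes and ZEB1 and TWIST1 from less differentiated melanoma. In ZEB1, ZEB2 and SNAI2 the groups did not overlap, and ZEB1 shares its locus with an antisense gene. Of 25 genes of an invasive state, 12 were lower and 5 higher. WNT5A, a ligand of that state, had 26.1, 24.5 and 27.5 CPM in the V600E libraries, against 6.34, 6.93 and 7.16 CPM in the Vector libraries (log2 change 1.94, SE 0.10, adjusted p = 3.64e-15), while THBS1, LOXL2 and NT5E were lower (log2 changes -1.39, -1.28 and -0.94). Of 18 cadherins 3 were higher and 7 lower (3 and 4 without the second V600E library). N-cadherin, CDH2, was higher (log2 change 0.38), and CDH13 was lower (-2.95).

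Among signalling genes of development, BMP7, a bone morphogenetic protein, had 15.3, 14.1 and 14 CPM in the V600E libraries, against 3.62, 3.29 and 3.93 CPM in the Vector libraries (log2 change 2.0, SE 0.17, adjusted p = 2.25e-10). FST, which encodes follistatin, an antagonist of activin and BMP ligands, had 0.92, 0.778 and 0.606 CPM in the V600E libraries, against 5.18, 5.83 and 5.11 CPM in the Vector libraries (log2 change -2.8, SE 0.22, adjusted p = 4.69e-11). The 49 TGF-beta, BMP and activin genes gave 2 higher and 13 lower, SMAD6 and ID3 among the lower ones (log2 changes -1.56 and -0.46), and 4 and 16 with the GC and length offset. HEY1 and HEY2, repressors downstream of Notch, were both higher, with HEY1 at 84.9, 90.1 and 90.1 CPM in the V600E libraries, against 41.5, 38.3 and 38.4 CPM in the Vector libraries (log2 change 1.16, SE 0.081, adjusted p = 2.81e-12). HEY2 had 38.8, 40.5 and 43.9 CPM in the V600E libraries, against 17.6, 16.9 and 16.5 CPM in the Vector libraries (log2 change 1.28, SE 0.11, adjusted p = 1.53e-10). The receptor NOTCH3 was lower (log2 change -0.94), and the Notch list held 2 higher and 6 lower of 22. It held 2 higher and 3 lower with the GC offset, or without the first or the third V600E library, and 2 and 2 without the second Vector library. SFRP1, a secreted WNT antagonist, had 95, 93.6 and 98.1 CPM in the V600E libraries, against 44.2, 42.1 and 42.2 CPM in the Vector libraries (log2 change 1.16, SE 0.085, adjusted p = 8.58e-12). Over 48 WNT genes the count was 7 higher and 9 lower. Of 38 HOX genes 3 were higher and 3 lower, each by less than 2-fold (15.8% called, against 17.0% of all tested genes). This count was 5 and 2 with the GC offset, 2 and 1 without a count filter, 1 and 1 without the third V600E library, 3 and 1 without the first Vector library, and 1 and 3 without the third.

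Second messenger and calcium genes changed in both directions. Of 53 genes of cGMP and cAMP signalling 6 were higher and 11 lower, with 6 and 6 without the second and 5 and 7 without the third V600E library. NPR1, the membrane guanylyl cyclase that binds natriuretic peptides, had 24.4, 27.9 and 24 CPM in the V600E libraries, against 1.09, 0.742 and 0.837 CPM in the Vector libraries (log2 change 4.82, SE 0.19, adjusted p = 5.88e-18). PDE2A, a phosphodiesterase stimulated by cGMP, was higher too (log2 change 1.96), while GUCY1A2, a subunit of the soluble cyclase, was lower (log2 change -1.44). PLN, which encodes phospholamban, the inhibitor of the calcium pump of the endoplasmic reticulum, had 46.7, 48.7 and 52.6 CPM in the V600E libraries, against 2.43, 1.56 and 2.6 CPM in the Vector libraries (log2 change 4.49, SE 0.20, adjusted p = 8.25e-17). PLN lies within CEP85L on the opposite strand, and CEP85L was higher as well (log2 change 1.18, adjusted p = 2.62e-08). STIM2, a sensor of calcium in the endoplasmic reticulum, had 132, 116 and 126 CPM in the V600E libraries, against 50.6, 52.9 and 53.7 CPM in the Vector libraries (log2 change 1.25, SE 0.076, adjusted p = 1.17e-13), and STIM1 was lower (log2 change -0.32). The plasma membrane pump ATP2B1 and the channel subunit CACNA1C were higher (log2 changes 0.83 and 2.38). Of 63 channel and calcium genes, 9 were higher and 9 lower, but the lower count was 3 to 5 without any 1 of the V600E libraries or the first or second Vector library. With the GC and length offset 14 were higher and 8 lower. RGS5, which shortens the signal of G proteins (the gene with identifier ENSG00000143248, since the symbol stands on 2 tested genes), had 60.8, 59.3 and 68.7 CPM in the V600E libraries, against 6.34, 5.97 and 8.96 CPM in the Vector libraries (log2 change 3.16, SE 0.11, adjusted p = 1.49e-18), and overlaps NUF2 on the opposite strand (log2 change 0.50). The orphan receptor GPRC5B had 183, 194 and 190.2 CPM in the V600E libraries, against 78.1, 75.3 and 73 CPM in the Vector libraries (log2 change 1.33, SE 0.098, adjusted p = 9.35e-12). It overlaps IQCK on the opposite strand, which was higher as well (log2 change 1.83).

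ATF4, the factor that raises amino acid supply under stress, and its targets were higher in 19 and lower in 1 of 35 genes, with a median log2 change of 0.34. The lower member was not called with the GC offset, or without the first V600E library or the first or second Vector library. ATF4 itself had 366, 405 and 395 CPM in the V600E libraries, against 282, 259.5 and 251 CPM in the Vector libraries (log2 change 0.56, SE 0.091, adjusted p = 3.02e-05). TRIB3, a pseudokinase that limits ATF4, was the 1 called member that reached 2-fold, with 58, 69.6 and 62.4 CPM in the V600E libraries, against 30.1, 26.8 and 24.8 CPM in the Vector libraries (log2 change 1.22, SE 0.11, adjusted p = 5.97e-10). MTHFD2 and PHGDH, of the folate and serine pathways, were higher (log2 changes 0.72 and 0.53). DDIT3, which encodes CHOP, had 27.3, 31.3 and 27.7 CPM in the V600E libraries, against 20.3, 19.1 and 17.5 CPM in the Vector libraries (log2 change 0.60, SE 0.12, adjusted p = 5.72e-04). Of 24 genes of the unfolded protein response, 7 were higher and none lower, XBP1 and HSPA5 among them (log2 changes 0.43 and 0.32). Of 28 amino acid transporters 4 were higher and 7 lower, with 7 and 7 under the GC and length offset and 7 and 9 in the 6 libraries alone. SLC38A1, a glutamine carrier, had 56.7, 47.7 and 55.2 CPM in the V600E libraries, against 21.1, 20.5 and 23.9 CPM in the Vector libraries (log2 change 1.29, SE 0.11, adjusted p = 1.53e-10). SLC1A4, a carrier of alanine and serine, had 88.1, 88.1 and 89.2 CPM in the V600E libraries, against 217, 196 and 203 CPM in the Vector libraries (log2 change -1.22, SE 0.063, adjusted p = 3.51e-15).

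Lysosomal genes, by contrast, were lower in 21 and higher in 4 of 43, with a median log2 change of -0.25 and no member past 2-fold. CTSD, which encodes the protease cathepsin D, had 328, 407 and 378 CPM in the V600E libraries, against 659, 627 and 539 CPM in the Vector libraries (log2 change -0.71, SE 0.12, adjusted p = 3.03e-05). LAMP1, the main membrane protein of lysosomes, had 367, 381 and 376 CPM in the V600E libraries, against 489, 466 and 459 CPM in the Vector libraries (log2 change -0.33, SE 0.058, adjusted p = 8.92e-05). In both genes every V600E library lay below every Vector library. NPC2, a cholesterol carrier, was higher (log2 change 0.61).

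**Figure D5:**
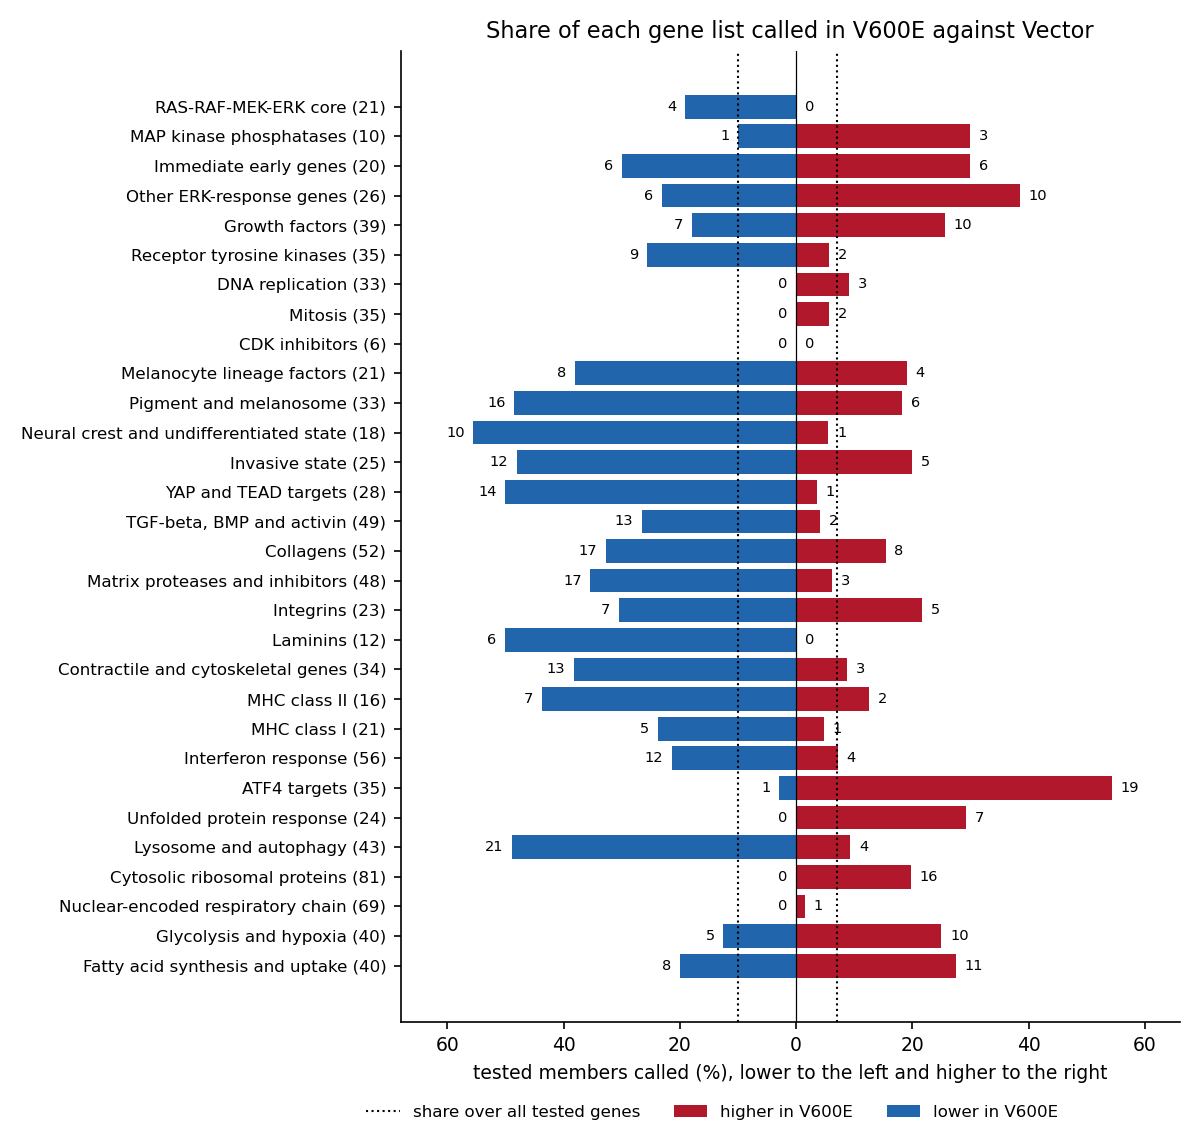
Percentage of the tested members of 30 gene lists that were called lower (blue, left) or higher (red, right) in V600E cells, with the number of called members at the end of each bar and the number tested after the name. Dotted lines give the shares over all tested genes, 9.92% lower and 7.04% higher; ATF4 targets reach furthest to the right with 19 of 35, and the pigment, neural crest, YAP and TEAD and lysosome lists reach far to the left.

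Lipid and energy genes gave mixed counts. FABP7, a fatty acid binding protein of neural crest and glial cells, had 642, 708 and 687 CPM in the V600E libraries, against 247, 246 and 244 CPM in the Vector libraries (log2 change 1.46, SE 0.11, adjusted p = 2.57e-11). APOD, an apolipoprotein that carries small lipids, had 251, 271 and 271 CPM in the V600E libraries, against 90.6, 89.7 and 82.9 CPM in the Vector libraries (log2 change 1.59, SE 0.12, adjusted p = 3.02e-11). APOC1 and APOE, which are neighbours on chromosome 19, were both higher (log2 changes 2.24 and 0.58). LPL, the lipase that frees fatty acids from lipoproteins, had 16.8, 18.1 and 17 CPM in the V600E libraries, against 59.1, 55.6 and 62.3 CPM in the Vector libraries (log2 change -1.77, SE 0.16, adjusted p = 9.34e-10). In all, 11 fatty acid genes were higher and 8 lower of 40. Of 40 genes of glycolysis and the hypoxia response, 10 were higher and 5 lower, and 20 and 5 with the GC and length offset. The lower count was 3 without the third V600E library and in the 6 libraries alone. LDHA, HK2 and PGK1 had log2 changes of 0.49, 0.29 and 0.24, and EPAS1, which encodes HIF-2 alpha, was lower (-0.93). Nuclear-encoded subunits of the respiratory chain did not follow, with 1 of 69 higher and none lower, although the fit of the 6 libraries alone called 10 higher and 1 lower. None was higher without the second V600E or the second Vector library, 2 were higher without the first V600E library, and 1 was lower without the third Vector library. The higher count was 2 with either offset or without BRAF and the mitochondrial genes, and 3 with DESeq2, with RLE size factors or without a count filter, which also called 1 lower. Mitochondrially encoded protein genes were higher in 5 of 13, with a median log2 change of 0.31, in 2 with the GC and length offset or without the third V600E or the first Vector library, in 3 without the first V600E or the second Vector library, and in 12 without a count filter or in the 6 libraries alone. They are not part of the fit without BRAF and the mitochondrial genes, and their summed share is given above. Cytosolic ribosomal protein genes were higher in 16 of 81 and lower in none, but this count was 3 without the second V600E library, 9, 7 and 6 without the first, the second and the third Vector library, 35 without a count filter and 47 in the fit of the 6 libraries alone. NRF2 targets and oxidative defence genes gave 3 higher and 7 lower of 29. The higher count was 1 without the third V600E library or the second or the third Vector library and 5 in the 6 libraries alone, and with the GC and length offset 5 were higher and 10 lower. NQO1 and FTL had log2 changes of -0.38 and -0.50.

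Further genes changed strongly. CLSTN3, which encodes a synaptic adhesion protein, had 96.8, 95.6 and 96.5 CPM in the V600E libraries, against 21.7, 23.6 and 20.3 CPM in the Vector libraries (log2 change 2.14, SE 0.11, adjusted p = 1.85e-15). ITIH5, a secreted protein that binds hyaluronan, had 286, 277 and 279 CPM in the V600E libraries, against 64.3, 62.8 and 67.9 CPM in the Vector libraries (log2 change 2.11, SE 0.14, adjusted p = 7.98e-13). LAD1, an anchoring filament protein of basement membranes, had 18.2, 20.5 and 19.7 CPM in the V600E libraries, against 2.05, 2.33 and 1.72 CPM in the Vector libraries (log2 change 3.25, SE 0.21, adjusted p = 2.81e-12). C6orf141, SHISA3, MUC7 and LRFN5 were higher (log2 changes 2.54, 2.52, 2.17 and 1.86). LGI3, a secreted protein of neural tissue, had 14.8, 16.4 and 17 CPM in the V600E libraries, against 72.9, 71.6 and 63.7 CPM in the Vector libraries (log2 change -2.11, SE 0.13, adjusted p = 2.19e-13), and DMTN, which bundles actin, was lower too (log2 change -2.29). OLFML2A, VASN, KIF26B and TGM2 were lower (log2 changes -3.29, -2.78, -2.42 and -2.21). COL12A1, CCDC80, C14orf37 and TSPAN10 were lower by similar amounts (log2 changes -2.4, -1.95, -1.93 and -1.85).

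Signalling below and beside the receptors changed in single genes. Of 28 PI3K and AKT pathway genes, 3 were higher and 6 lower (6 and 4 with the GC and length offset). IRS1, the insulin receptor substrate, had 21.7, 19.1 and 18.9 CPM in the V600E libraries, against 39.9, 41.7 and 41.9 CPM in the Vector libraries (log2 change -1.05, SE 0.14, adjusted p = 1.78e-06). INPP5D, a phosphatase best known from blood cells, had 5.32 ± 0.897 CPM in V600E cells and 2.43 ± 0.664 CPM in Vector cells (log2 change 1.15). Of 24 regulators of G-protein signalling 5 were higher and 3 lower (8 and 4 with the GC offset, 5 and 1 without the first V600E library), and of 48 listed receptors of this class 5 were higher and 10 lower (3 and 8 without the first V600E library, 3 and 9 without the second Vector library). EDNRB, the endothelin receptor of melanocytes, had 94.5, 92.4 and 95.8 CPM in the V600E libraries, against 144, 129.6 and 151 CPM in the Vector libraries (log2 change -0.59, SE 0.084, adjusted p = 4.42e-06). ADORA2B, an adenosine receptor, had 3.11 ± 0.0911 CPM in V600E cells and 1.62 ± 0.0914 CPM in Vector cells (log2 change 0.93).

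Secreted inflammatory factors were called in 19.2%, near the 17.0% of all tested genes. Of 20 serpins, a family of protease inhibitors, 10 were called. Of 26 inflammatory factors 2 were higher, LIF and CXCL16, and 3 lower, CCL2, CXCL1 and TNFSF15. CXCL1 and TNFSF15 each lost the call in 4 of the 6 fits that leave out a library (adjusted p up to 0.116 and 0.16), and the list held 2 higher and 1 lower without the second or the third V600E library or the third Vector library. CCL2, which attracts monocytes, had 0.12, 0.519 and 0.189 CPM in the V600E libraries, against 1.34, 1.59 and 1.34 CPM in the Vector libraries (log2 change -2.28, SE 0.43, adjusted p = 2.17e-04). Of 19 NF-kappa-B genes 3 were higher and 5 lower, with 5 and 6 under the GC offset, 5 and 5 under the GC and length offset and 3 and 3 without the second V600E library. Of the serpins 7 were higher and 3 lower. SERPINF1, which encodes the antiangiogenic factor PEDF, had 7.92, 8.62 and 7.38 CPM in the V600E libraries, against 1.76, 1.52 and 2.09 CPM in the Vector libraries (log2 change 2.16, SE 0.23, adjusted p = 1.46e-08).

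Transporters, chromatin factors and keratins are given with their shares called, against 17.0% of all tested genes. The share was 34.1% for ABC transporters, 22.6% for potassium channels, 16.3% for intermediate filaments and keratins, and 15.4% for chromatin modifiers. Those of keratins and chromatin modifiers were thus near the share over all genes. Of 41 ABC transporters 2 were higher and 12 lower, with 1 higher without a count filter, the third V600E library or the second Vector library. ABCB5, which marks a subset of melanoma cells, had 2.64, 2.85 and 1.78 CPM in the V600E libraries, against 7.04, 5.8 and 7.16 CPM in the Vector libraries (log2 change -1.45, SE 0.26, adjusted p = 9.22e-05). Of 53 potassium channel genes 6 were higher and 6 lower, and of 43 intermediate filament genes 4 and 3 (2 and 3 without the second V600E library or the first or the third Vector library). Of 39 chromatin modifiers 1 was higher and 5 were lower (4 and 3 with the GC and length offset, none and 3 with the GC offset, 2 and 6 in the 6 libraries alone). None was higher without the second V600E library or the first or second Vector library, and without the last of these 3 were lower. HDAC9, a class IIa histone deacetylase, had 17.5, 18 and 18.9 CPM in the V600E libraries, against 48.1, 44 and 54.2 CPM in the Vector libraries (log2 change -1.43, SE 0.11, adjusted p = 1.93e-11). Among 43 homeobox and developmental factors, 9 were higher and 10 lower. TBX3, a T-box factor that lowers CDK inhibitors and E-cadherin, had 11.8, 11 and 12.5 CPM in the V600E libraries, against 4.77, 4.1 and 3.47 CPM in the Vector libraries (log2 change 1.5, SE 0.18, adjusted p = 1.74e-07). Its relative TBX2 was lower (log2 change -0.40), a call lost without the first Vector library (adjusted p = 0.0636). RUNX1, RUNX3 and GATA2 were lower as well (log2 changes -0.87, -0.45 and -0.86). Melanoma antigens gave 3 higher and 7 lower genes of 37 (3 and 4 without the first V600E library, 5 and 6 with the GC and length offset). Of 27 heat shock genes 8 were higher and 4 lower (5 and 4 without the second Vector library).

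Some called genes lay side by side. On chromosome 7, FAM131B, ZYX and EPHA1 are neighbours between positions 143353400 and 143408892 and all were higher. FAM131B had 15.1, 14.1 and 15.4 CPM in the V600E libraries, against 1.57, 2.09 and 2.43 CPM in the Vector libraries (log2 change 2.89, SE 0.17, adjusted p = 3.77e-14). ZYX, which encodes zyxin of focal adhesions, had 513, 581 and 575 CPM in the V600E libraries, against 250.1, 251 and 227 CPM in the Vector libraries (log2 change 1.2, SE 0.086, adjusted p = 5.69e-12). EPHA1 had 1.28, 1.52 and 1.29 CPM in the V600E libraries, against 0.512, 0.283 and 0.46 CPM in the Vector libraries (log2 change 1.7, SE 0.40, adjusted p = 0.00275), and its end overlaps that of ZYX on the opposite strand. The sources used here do not say whether the counting used strand, so reads of such partners may be shared. This also holds for other genes named above that overlap a gene on the opposite strand, among them VASN, BCAN, TGM2 and LGI3. Runs of at least 4 neighbours with the same call were sought among tested genes of at least 1 CPM, passing over genes below that level. Over the genome, 12 runs called higher held 50 genes, and 12 runs called lower held 48. FAM131B, ZYX and EPHA1 are not part of such a run. Whether scattered calls would give as many runs was not tested. The chromosomes other than the mitochondrial one had median log2 changes between -0.11 on chromosome 22 and 0.10 on chromosome 13 over genes of at least 1 CPM, while all tested genes of any level had a median of -0.0014.

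A further 3 libraries hold V600E cells kept in 500 nM LGX818 for 20 hours. They share their V600E comparison group with the values above, so levels are given side by side without a test. DUSP5 averaged 1.64 CPM under drug, 38.9 CPM in V600E cells without drug and 6.04 CPM in Vector cells. EGR1, LIF and SH2D1B stood at 1.5, 2.73 and 0.152 CPM under drug. All 4 were thus below the Vector level under drug. PLN, by comparison, averaged 29.5 CPM under drug, 49.3 CPM in V600E cells and 2.19 CPM in Vector cells, and APOD 211, 264 and 87.7 CPM. Both were above the Vector level under drug. HEY1 and ZEB1 stood at 7.25 and 1.6 CPM under drug, below both groups without drug. Of the genes lower in V600E cells, DCT averaged 1863 CPM under drug, 57.1 CPM in V600E cells and 228 CPM in Vector cells, and MMP2 181, 28.8 and 117 CPM. CIITA and CD74 stood at 6.84 and 50.1 CPM under drug, above the V600E level and below the Vector level. FST, LPL and NGFR were lower under drug than in either group without it, at 0.569, 3.08 and 5.36 CPM, against 0.768, 17.3 and 7.61 CPM in V600E cells and 5.37, 59 and 26.1 CPM in Vector cells.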

How the data were processed

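Polyadenylated RNA of WM239A cells was sequenced in 29 libraries, of which 3 V600E and 3 Vector libraries are compared here. Per the labels' protocols, RNA was purified from frozen cells of every sample once the time course had ended, and libraries were made from 100 ng of RNA with a Universal Plus mRNA-seq kit. The authors deposited whole read counts per gene. The submitters' processing notes name Trimmomatic 0.32, HISAT2 2.0.3, SAMtools 0.1.18, HTSeq 0.6.1 and GRCh38. Whether counting used strand, and from which annotation release, is not given in the sources used here.

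Counts were tested with edgeR 4.0.16 (R 4.3.3) with TMM factors, the filterByExpr filter and the quasi-likelihood test in 1 fit of 29 libraries in 10 groups. The contrast was V600E minus Vector, with Benjamini-Hochberg adjustment over 20494 genes and a threshold of 0.05. SE is the log2 change divided by the root of F. Coordinates, GC content and transcript lengths came from GENCODE 29 and promoters from RefSeq (GRCh38.p14). Alternatives were DESeq2 1.42.0, RLE size factors, no count filter, the 6 libraries alone, a replicate block, no BRAF or mitochondrial genes, each library left out, and 2 offsets for GC content and length added after seeing the data. Simulated counts held 200 genes changed by 1.5-fold, 2-fold or 4-fold. On these the fit recovered 44.8% of 1.5-fold, 68.7% of 2-fold and 86.4% of 4-fold changes among 19255 genes, with 6 false calls.

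The genes and lists were chosen with earlier results of these data known. Named genes are BRAF, the 20 largest rises and 20 largest falls among called genes of at least 5 CPM whose groups do not overlap, genes silent in a group, and members of the lists. Genes named as opposite-strand partners or as markers were chosen after their values were seen. Some members are not reported here.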

Additional observations from a re-analysis of the deposited data

How the results depend on the processing

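The number of genes called stayed within 1.5 times of the reported value under all 14 alternatives. Genes higher and lower in V600E cells numbered 1667 and 2068 with DESeq2, 1516 and 1947 with RLE size factors, 1340 and 1992 without a count filter, and 2006 and 2264 in the fit of the 6 libraries alone. They numbered 1509 and 1951 without BRAF and the mitochondrial genes, 1654 and 1956 with the offset for GC content, and 1928 and 2141 with that for GC content and transcript length. With a library left out, 1029 to 1318 genes were higher and 1429 to 1851 lower. Of the 3476 calls, 3382 were shared with DESeq2, 2968 with the GC offset and 2924 without a count filter. Fewer were shared in most fits with a library left out. The number was 2472 without the first Vector library, 2550 without the second and 2925 without the third. It was 2641, 2643 and 2670 without the first, the second and the third V600E library. The median log2 change over all genes stayed between -0.0076 and 0.0034.

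Libraries with the same number did not deviate together (correlations -0.12, -0.056 and -0.042). With the replicate number as a block, 1408 genes were higher and 1987 lower, and of the named genes RASAL1 lost its call (adjusted p = 0.0567).

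No named gene changed direction past the threshold. Of 210 named genes called, 201 kept the call under every alternative, and of 17 not called, 7 gained a call under at least 1. Of 1736 list counts recomputed, 162 moved by more than 1.5 times. The causes were not tested. In the simulation 44.8% of 1.5-fold changes were recovered, and smaller changes were not simulated. It changed 200 genes, while 3476 were called in the data, so recovery in the data may differ.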
